A study of Mus musculus with 8 samples.

Results

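The miR-23, miR-27 and miR-24 clusters were followed across the compartments of the pubertal mouse mammary gland. The members were the 5 mature miRNAs mmu-miR-23a, mmu-miR-23b, mmu-miR-27a, mmu-miR-27b and mmu-miR-24 (written below without the prefix for mouse), taken by name from the 611 mouse miRNAs on the array. Single-colour Agilent miRNA arrays measured them in 3 samples of terminal end buds (TEBs), 2 of mature ducts and 3 of stroma. All tissue came from female β-actin-GFP reporter mice of the FVB/n strain at 5 weeks of age, micro-dissected under a fluorescence microscope, with no treatment. TEBs are the club-shaped tips that drive the ducts through the fat pad at puberty, mature ducts are the tubes behind them, and the stroma was cut from fat pad away from the epithelium. Each fraction was a piece of tissue and not a sorted cell type, so that fewer cells of a kind and less miRNA per cell cannot be told apart. The labels do not say whether the replicates came from separate animals, and p-values therefore measure the spread between these arrays.

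The clusters are a pair of paralogous loci, each transcribed as a single primary transcript from which a miR-23, a miR-27 and a miR-24 hairpin are cut. Mature miRNAs select the mRNAs they repress mainly through the seed near their 5′ end, so members that share a seed are expected to share many targets. The family is best known from blood vessels, where both clusters are abundant in endothelium and affect angiogenesis, and from fat, where miR-27 restrains adipocyte differentiation by repressing Pparg, the transcription factor that drives it. miR-24 is known for repressing genes of the cell cycle and of apoptosis.

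The mature sequences show which members can be told apart by sequence and which cannot. They are taken from RefSeq (mouse build GRCm38), 5′ to 3′, with the seed at bases 2 to 8 in capitals, and a sequence was found for 4 of the 5 members. All lie on the + strand. The cluster of miR-23a, miR-27a and miR-24-2 spans chr8:84208518-84208921 with no protein-coding gene around it, Zswim4 being the nearest one in the annotation, and that of miR-23b, miR-27b and miR-24-1 spans chr13:63300484-63301275 within the protein-coding gene Aopep, the gene of an aminopeptidase.
miR-23a (chr8:84208563-84208583): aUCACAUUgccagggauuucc
miR-27a (chr8:84208727-84208747): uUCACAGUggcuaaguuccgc
miR-27b (chr13:63300760-63300780): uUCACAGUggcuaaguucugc
miR-24 (chr8:84208875-84208896 and chr13:63301251-63301272): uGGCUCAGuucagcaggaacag
miR-27a and miR-27b have the same seed and differ at 1 of 21 bases, C19U, counted from the 5′ end of miR-27a. The mature miR-24 of both clusters is the same molecule, and its array signal sums over the loci. Of the 493 array miRNAs with a current name in the sequence table, 0 outside the clusters had the seed of a printed member. How far the array's probe for one paralog also binds the other was not tested.

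All 5 members were flagged as detected by the scanner software on every one of the 8 arrays, and the error that the software gave for these 40 signals was 7.5% to 17.45% of the signal. Array signals are given here in scaled units: each array was multiplied by a factor (0.75 in duct replicate 1 to 1.36 in stroma replicate 3) that equalised its 75th percentile over the 108 miRNAs detected on all arrays. Between 23.2% and 27.7% of the mouse miRNAs were detected per array. Arrays of the same tissue correlated at r = 0.955 to 0.987 over the tested miRNAs, and arrays of different tissues at 0.645 to 0.926. The dissection was checked against 10 miRNAs of epithelium, led by miR-200c and miR-200b. Their summed scaled signal was 2059 to 2193 in TEBs, 2161 to 2391 in ducts and 2.7 to 16.6 in stroma, where 10 of 10 were not detected on any array. miR-203 and miR-182 were not detected in TEBs or ducts either, so that 8 of the 10 bear on the check. Of the 4 listed miRNAs of fibroblasts, led by miR-199a-3p, all were detected on every array of each tissue, with sums of 4005 to 5174 in TEBs, 4769 to 4955 in ducts and 3912 to 4115 in stroma, so the epithelial fractions also held signal of connective tissue miRNAs.

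Across the gland, miR-23a rose from TEB to stroma, miR-23b was higher in ducts than in TEBs, and for miR-27a, miR-27b and miR-24 no comparison passed the test. In limma fits over 167 miRNAs, at an adjusted p under 0.05, miR-23a and miR-23b were lower in TEBs than in ducts, that is 2 of 5 members (the sign of miR-23a turned under 1 other scaling), where 24.6% of the tested miRNAs passed in either direction, 13.2% lower and 11.4% higher in TEBs. Between TEBs and stroma only miR-23a passed (1 of 5 members, lower in TEBs), against 64.7% of all tested, 44.3% lower and 20.4% higher in TEBs. Between ducts and stroma 0 of 5 members passed at the adjusted threshold, against 21.6% of all tested, 12% lower and 9.58% higher in ducts. At an unadjusted p under 0.05 miR-23a (lower in ducts), miR-23b and miR-27b (both higher in ducts) did (3 of 5), against 59 of the 167 tested miRNAs (35.3%). At that looser threshold no further member passed between TEBs and ducts (2 of 5, against 49.1% of all tested). The same held between TEBs and stroma (1 of 5, against 68.3%). In the mean of the TEB and duct means against stroma, called epithelium here, miR-23a passed alone (1 of 5, lower in epithelium), against 44.3% of all tested, 25.7% lower and 18.6% higher in epithelium. At the unadjusted threshold miR-27b, higher in epithelium, passed as well (2 of 5, against 57.5%). The signals of the tissues did not overlap for 4 of 5 members between TEBs and ducts (65.3% of the tested miRNAs), 1 of 5 between TEBs and stroma (71.9%), 3 of 5 between ducts and stroma (42.5%) and 1 of 5 between epithelium and stroma (33.5%).

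**Figure D1:**
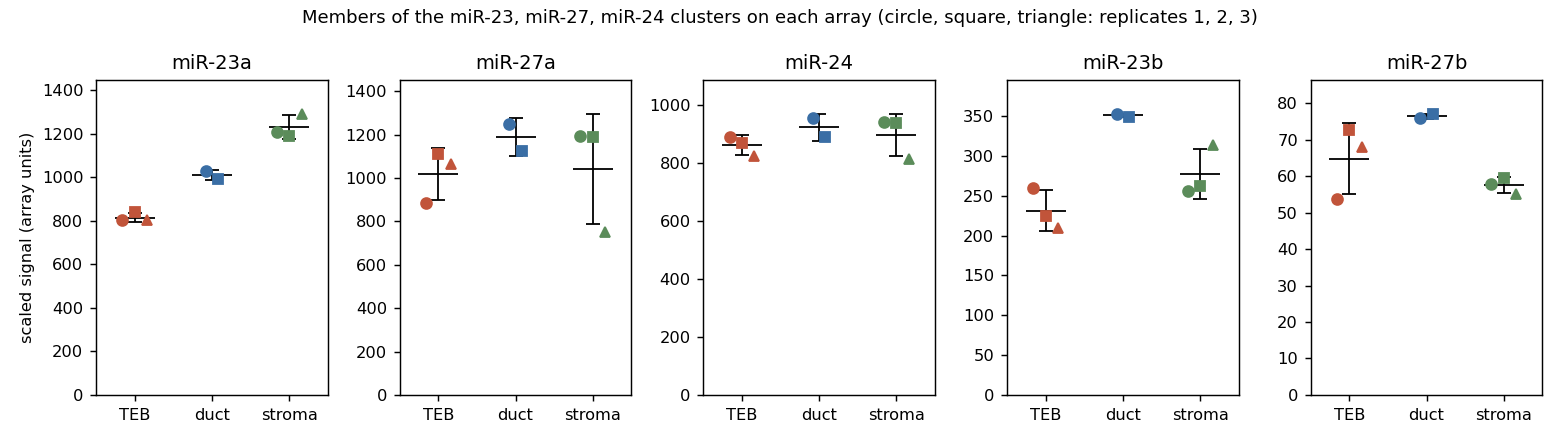
Scaled signal of each member on every array, in array units on linear axes that start at 0 and differ between panels. Points are arrays (circle, square and triangle for replicates 1, 2 and 3), and black bars are the mean ± SD of 3 TEB, 2 duct and 3 stroma arrays. Under this scaling the miR-23a points step up from TEB to duct to stroma, the 2 duct points of miR-23b stand above all others, and stroma replicate 3 stands low for miR-27a.

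miR-23a had a scaled signal of 803.9, 839.6 and 802.8 in TEB replicates 1 to 3. In ducts it was 1029 and 993.1. In stroma it was 1209, 1191 and 1294. All 3 tissues were separate, with TEBs lowest and stroma highest, and the arrays of a tissue lay close together. The TEB mean was 815.4 ± 20.9 (SD, n = 3), the duct mean 1011 ± 25.2 (SD, n = 2) and the stroma mean 1231 ± 54.8 (SD, n = 3). Stroma was 1.51-fold above TEBs (log2 difference TEB minus stroma -0.59, SE 0.077, limma adjusted p = 0.0010). This call held in each of 8 fits with 1 array left out (limma adjusted p between 0.0023 and 0.0062). Epithelium was lower than stroma by a log2 difference of -0.44 (SE 0.070, limma adjusted p = 0.0028), which held in all 8 such fits as well (adjusted p 0.0057 to 0.015).

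The step of miR-23a from TEBs to ducts was smaller and less secure. Ducts were 1.24-fold above TEBs (log2 -0.31, SE 0.086, limma adjusted p = 0.047). The call was kept in 1 of 8 fits with an array left out, the one without stroma replicate 3 (adjusted p = 0.037). It was lost without TEB replicate 1 (0.067), 2 (0.091) or 3 (0.082), without duct replicate 1 (0.20) or 2 (0.081), and without stroma replicate 1 (0.083) or 2 (0.058), while the log2 difference stayed between -0.34 and -0.28. With the row of the slide as a covariate the adjusted p was 0.086. Between ducts and stroma the log2 difference was -0.28 with a 95% interval of -0.49 to -0.08 and a limma adjusted p of 0.061. The row was read from the position in each array's identifier, by which the arrays lay in either of 2 rows of their slides. Within row 1 the TEB minus stroma difference of miR-23a was -0.56, and within row 2 it was -0.63.

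The order of miR-23a rests on how arrays are scaled to each other. Before any scaling its signal was 798.1, 887.3 and 768.1 in TEBs, 1372 and 1238 in ducts, and 1183, 992.1 and 951.0 in stroma. TEBs were then still below every other array, but the TEB minus stroma difference was -0.35 and did not pass (limma adjusted p = 0.088), ducts were above stroma (log2 difference 0.33), and epithelium minus stroma was -0.0083 (limma adjusted p = 0.97). With the 75th percentile taken over all mouse miRNAs, most of which are not detected, the TEB minus duct difference turned to 0.24 and that from stroma shrank to -0.20 (limma adjusted p = 0.51 and 0.57), and epithelium minus stroma, at -0.32, did not pass (0.32). This percentile was a signal of 29.86 on duct replicate 1, 1 of only 2 duct arrays, and 11.53 to 20.58 on the other arrays. The part of that array in the change of sign was not tested. The median of all 167 tested miRNAs moved with the scaling too, from -0.10 for TEB minus duct to 0.45 with that percentile and -0.47 without scaling. Set against the median miRNA, from which a scaling by 1 factor per array cancels by construction, miR-23a was at -0.32 for TEB minus stroma and -0.21 for TEB minus duct, and with quantile normalisation, which does not cancel, at -0.48 and -0.34.

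miR-23b, the paralog from the other cluster, had its highest signal in ducts. It measured 259.7, 224.6 and 210.1 in TEBs. In ducts it measured 352.7 and 349.5. In stroma it measured 255.5, 262.5 and 313.3. Both duct arrays were above every other array, while TEB replicate 1 lay between stroma replicates 1 and 2. The TEB mean was 231.5 ± 25.5 (SD, n = 3), the duct mean 351.1 ± 2.28 (SD, n = 2) and the stroma mean 277.1 ± 31.5 (SD, n = 3). Ducts were 1.52-fold above TEBs (log2 TEB minus duct -0.61, SE 0.14, limma adjusted p = 0.024). With the 75th percentile over all mouse miRNAs the difference shrank to -0.056 and the call was lost (limma adjusted p = 0.88).

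This call on miR-23b held in 5 of 8 fits with an array left out and was lost without TEB replicate 2 (limma adjusted p = 0.068), duct replicate 1 (0.12) or duct replicate 2 (0.074). It passed in 7 of 13 other settings and was lost, beside the percentile over all mouse miRNAs, with quantile normalisation (log2 -0.51, adjusted p = 0.081), the authors' value table (0.068), no detection filter (0.075), the methods' t-test (0.084) and the replicate number as a block (0.085). Within row 1 of the slides the TEB minus duct difference was -0.55, and within row 2 it was -0.73. Ducts minus stroma gave a log2 difference of 0.35 with a 95% interval of 0.02 to 0.68 (limma adjusted p = 0.12), and without scaling 0.96, past the threshold. TEBs minus stroma gave -0.26 with an interval of -0.55 to 0.04 (limma adjusted p = 0.10), a value that was -0.08 within row 1 and -0.45 within row 2. In the order TEB, stroma, duct under the main scaling, therefore, neither neighbour differed from the next beyond the test's threshold.

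**Figure D2:**
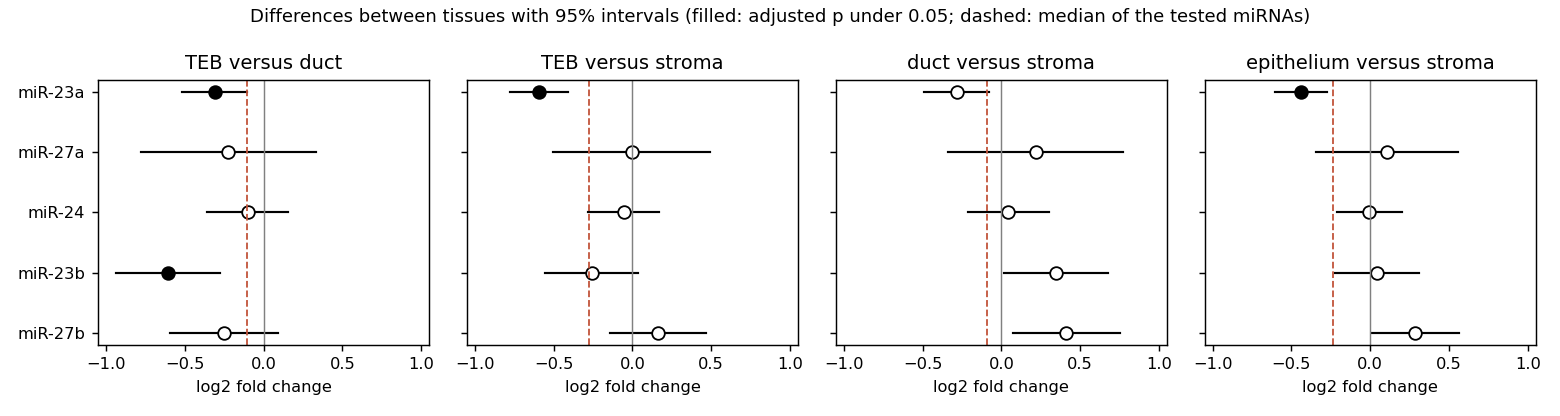
Log2 difference between tissues of each member (points) with its 95% interval (lines) from the limma fit. Filled points have an adjusted p under 0.05, the grey line marks no difference and the dashed line the median of the 167 tested miRNAs (-0.10, -0.28, -0.09 and -0.24 from left to right). miR-23a is filled in all panels but ducts versus stroma, and miR-23b in TEB versus duct.

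The balance between the miR-23 paralogs can be read within an array, where the scaling drops out. The log2 ratio of the miR-23a signal to the miR-23b signal was 1.63, 1.90 and 1.93 in TEBs. It was 1.54 and 1.51 in ducts. In stroma it was 2.24, 2.18 and 2.05. All 3 stroma arrays were above all 5 epithelial arrays, and ducts were below TEBs. Only the shift between tissues has a meaning here, since the probes need not respond alike. The ratio was lower in epithelium by a log2 value of -0.45, which is 0.73 times the stromal ratio (two-sided exact permutation test of 5 equally weighted arrays against 3, p = 0.036). Over the 20 ratio tests made, the Benjamini-Hochberg adjusted value was 0.29 (exact permutation tests), and no test of this design can reach 0.05 after that adjustment. The shift was -0.63 between ducts and stroma (exact permutation p = 0.1, the smallest that 2 against 3 arrays allow, adjusted 0.29) and -0.33 between TEBs and stroma (exact permutation p = 0.1, the smallest for 3 against 3, adjusted 0.29). With each array left out in turn the epithelial shift stayed between -0.51 and -0.40, and it was -0.55 within slide row 1 and -0.39 within row 2.

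**Figure D3:**
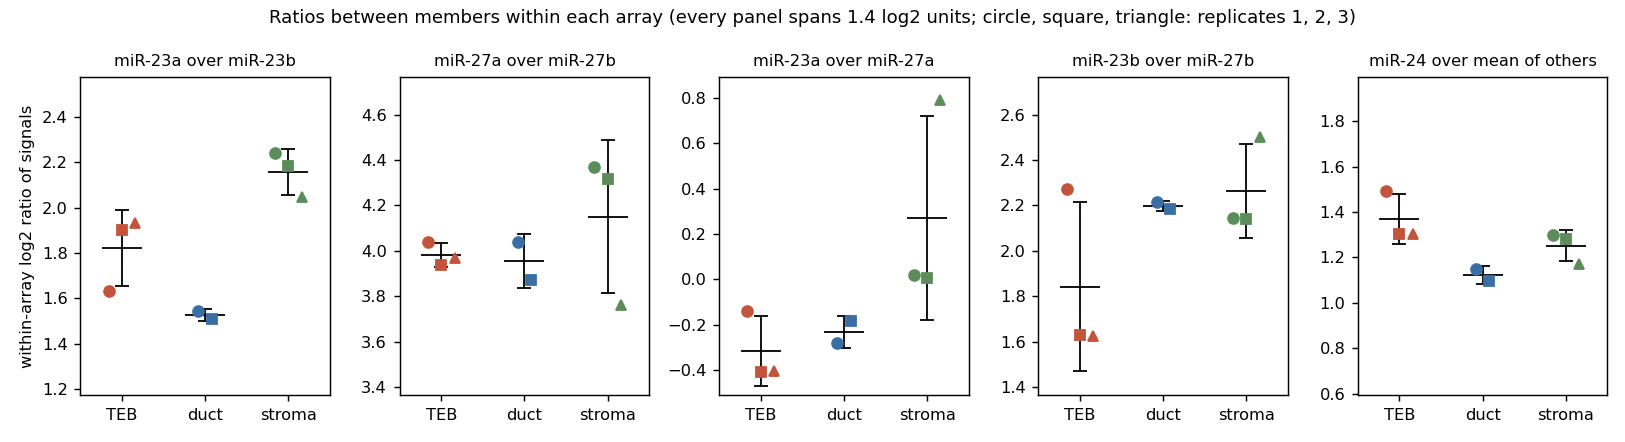
Log2 ratio of the unscaled signals of a pair of members on each array, or of miR-24 over the mean of the log2 signals of the other 4 members. Points are arrays (circle, square and triangle for replicates 1, 2 and 3), black bars are the mean ± SD, and each vertical axis spans 1.4 log2 units around its own centre. For miR-23a over miR-23b the stroma points lie at 2.05 to 2.24 and the epithelial points at 1.51 to 1.93.

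miR-27a, which lies next to miR-23a, had its highest mean in ducts. Its scaled signal was 885.2, 1112 and 1063 in TEBs. In ducts it was 1249 and 1126. In stroma it was 1192, 1187 and 749.0. The stroma arrays were spread apart, since replicate 3 was the lowest of all 8 arrays and the other 2 were within the duct range. The TEB mean was 1020 ± 120 (SD, n = 3), the duct mean 1187 ± 86.8 (SD, n = 2) and the stroma mean 1043 ± 254 (SD, n = 3). No difference passed the test, the widest being TEB minus duct at -0.22 with a 95% interval of -0.78 to 0.33 (limma adjusted p = 0.48). TEB minus stroma was -0.01 with an interval of -0.50 to 0.49, and without stroma replicate 3 it was -0.23 (limma adjusted p = 0.16).

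miR-27b, the paralog with the same seed, was highest in ducts. It measured 53.8, 72.6 and 68.0 in TEBs. In ducts it measured 76.0 and 77.0. In stroma it measured 57.7, 59.5 and 55.2. Ducts were above every other array and TEB replicate 1 was the lowest of all 8, below the 3 stroma arrays. The TEB mean was 64.8 ± 9.82 (SD, n = 3), the duct mean 76.5 ± 0.70 (SD, n = 2) and the stroma mean 57.5 ± 2.16 (SD, n = 3). Ducts minus stroma was 0.41 on the log2 scale, with a 95% interval of 0.07 to 0.75 and a limma adjusted p of 0.089. Epithelium minus stroma was 0.29 with an interval of 0.01 to 0.56 (limma adjusted p = 0.077). Leaving out TEB replicate 1 brought both past the threshold (0.41, adjusted p = 0.023, and 0.35, adjusted p = 0.011), along with TEB minus stroma (0.29, adjusted p = 0.028), whereas TEB minus stroma over all arrays was 0.16 (interval -0.14 to 0.47, limma adjusted p = 0.30). With a normexp background model added, the ducts minus stroma and epithelium minus stroma differences of miR-27b turned to -0.01 and -0.08. Without scaling they were 1.03 and 0.72, both past the threshold. The adjusted p of TEB minus duct was 0.21 (log2 -0.25, interval -0.59 to 0.09).

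Within arrays, the miR-27a to miR-27b ratio was 4.04, 3.94 and 3.97 on the log2 scale in TEBs. It was 4.04 and 3.87 in ducts. The stroma arrays gave 4.37, 4.32 and 3.76. The ratio did not separate the tissues, because stroma replicate 3 was the lowest array and the other 2 stroma arrays the highest. The epithelial shift was -0.18 (exact permutation p = 0.30, adjusted 0.47).

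miR-24, which both loci produce, was the flattest of the members. Its scaled signal was 889.9, 867.8 and 821.5 in TEBs. In ducts it was 955.3 and 889.1. In stroma it was 939.0, 937.2 and 811.2. The tissues overlapped in every comparison, and again stroma replicate 3 was the lowest array. The TEB mean was 859.7 ± 34.9 (SD, n = 3), the duct mean 922.2 ± 46.8 (SD, n = 2) and the stroma mean 895.8 ± 73.2 (SD, n = 3), 1.07-fold from the lowest to the highest. The 95% interval of TEB minus duct ran from -0.36 to 0.15 (log2 -0.10, limma adjusted p = 0.48). That of TEB minus stroma ran from -0.28 to 0.17 (log2 -0.06, limma adjusted p = 0.63), and that of duct minus stroma from -0.21 to 0.30 (log2 0.04, limma adjusted p = 0.82). The centres moved with the scaling beyond these intervals. With the percentile over all mouse miRNAs TEB minus duct was 0.45 and TEB minus stroma 0.34, and without scaling TEB minus duct was -0.47 and duct minus stroma 0.66 (limma adjusted p = 0.050, just above the threshold).

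Members that come from a single transcript were then compared within arrays. The log2 ratio of miR-23a to miR-27a, neighbours in the chr8 cluster, was -0.14, -0.41 and -0.41 in TEBs. It was -0.28 and -0.18 in ducts. The stroma arrays gave 0.02, 0.0048 and 0.79. All stroma arrays were above all epithelial arrays, 2 of them by a small margin and replicate 3 by a wide one. Between TEBs and ducts the ratio shifted by -0.086 (exact permutation p = 0.6, adjusted 0.71). The shift between epithelium and stroma was -0.55 (exact permutation p = 0.018, the smallest that 5 against 3 arrays allow, adjusted 0.29), and without stroma replicate 3 it was -0.29. It was -0.29 within slide row 1 and -0.69 within row 2, the row that holds stroma replicate 3.

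In the chr13 cluster the log2 ratio of miR-23b to miR-27b was 2.27, 1.63 and 1.63 in TEBs. It was 2.21 and 2.18 in ducts. In stroma it was 2.15, 2.14 and 2.50. TEB replicates 2 and 3 were below all other arrays and TEB replicate 1 was within the stromal range. The epithelial shift was -0.28 (exact permutation p = 0.27, adjusted 0.47). For miR-24 over the mean of the other members, TEBs were above ducts by 0.25 (exact permutation p = 0.1, adjusted 0.29), with 1.30 to 1.49 in TEBs against 1.09 and 1.15 in ducts. Over the 8 arrays the scaled log2 signals of miR-27a and miR-24 had a Pearson r of 0.73 and those of miR-27a and miR-27b of 0.60. For miR-23a and miR-27a r was -0.05 and for miR-23b and miR-27b it was 0.24. These values describe 8 arrays that share 3 tissues, and without scaling every pair of members had an r of at least 0.525.

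Each hairpin also yields a second strand, marked with an asterisk on the array, and the array held 4 of the 6 of these clusters: miR-27a*, miR-27b*, miR-24-1* and miR-24-2*. miR-24-1* and miR-24-2* are shown because their sequences differ between the loci, while the mature miR-24 of both is the same.
miR-24-1* (chr13:63301213-63301235): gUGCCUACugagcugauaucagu
miR-24-2* (chr8:84208839-84208860): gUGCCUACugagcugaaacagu
They have the same first 16 bases. miR-24-1* had a scaled signal of 13.0, 9.8 and 5.8 in TEBs. It had 2.5 and 6.0 in ducts, and in stroma it had -0.44, -2.1 and 3.9. It was flagged as detected in TEB replicates 1 and 2 alone, where the software's error was 29.4% and 44.6% of the signal. The other 3 strands were detected on 0 arrays, and none of the 4 was tested, as none was detected on every array of a tissue.

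The median change over the 5 members was set beside that over the 167 tested miRNAs. For TEB minus duct it was -0.25 against -0.10, for TEB minus stroma -0.06 against -0.28, for duct minus stroma 0.22 against -0.09, and for epithelium minus stroma 0.04 against -0.24. All 5 members had a negative TEB minus duct difference, 2 of which passed the test and 4 of which turned above 0 with the percentile over all mouse miRNAs, and in the other comparisons both signs occurred. For TEB minus stroma 59 of the 167 miRNAs had a lower log2 difference than miR-23a, and for TEB minus duct 43 had a lower one than miR-23b. At the other end, 33 had a higher duct minus stroma difference than miR-27b. The called differences between single tissues are plotted under each way of processing.

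**Figure D4:**
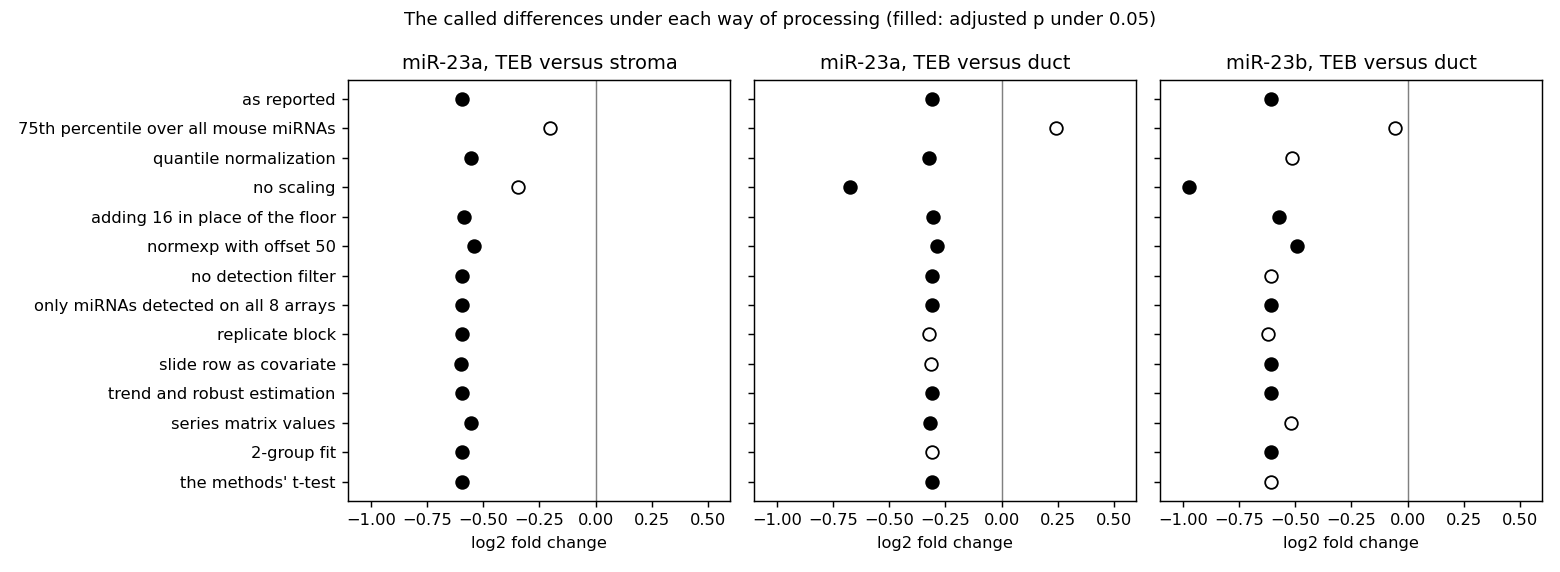
Log2 difference (first tissue minus second) of the 3 calls between single tissues (miR-23a in TEBs versus stroma, miR-23a and miR-23b in TEBs versus ducts) under each way of processing, with filled points for an adjusted p under 0.05. The first row is the value as reported. In the left panel 11 of the 13 alternatives are filled, in the middle panel 9 and in the right panel 7. The percentile over all mouse miRNAs gives the only value above 0, for miR-23a in TEBs versus ducts.

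For each member the tested miRNAs with the most similar pattern were listed by the Pearson r of the scaled log2 signal over the 8 arrays, as a description. Those of miR-23a were miR-196b (r = 0.96), miR-29a (0.94) and miR-26b (0.94). The means of all 3 stepped up from TEB to duct to stroma (996 to 1215 to 1555 scaled units for miR-29a). This order follows from choosing them on these arrays for likeness to miR-23a. miR-23b was most like miR-379 (0.87), miR-127 (0.87) and let-7b (0.83), each highest in ducts. miR-27a was most like miR-24 (0.73), miR-199b* (0.72) and miR-106b (0.72), and miR-27b most like let-7i (0.92), miR-34a (0.83) and miR-199a-5p (0.78). The closest to miR-24 were miR-451 (0.83), miR-690 (0.80) and miR-486 (0.79), of which miR-451 and miR-486 are miRNAs of red cells. With the percentile over all mouse miRNAs the r of miR-196b with miR-23a fell to 0.51 and that of miR-451 with miR-24 to 0.38, while miR-29a stayed at 0.96.

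miRNAs of some other cell types were lower in TEBs than in stroma, as were miR-23a and 44.3% of all tested miRNAs. Of all tested miRNAs, 20.4% were higher in TEBs than in stroma, and 12% were lower in ducts than in stroma. The fibroblast list went the other way, with 3 of its 4 miRNAs higher in TEBs than in stroma. Of the 2 listed endothelial miRNAs, miR-126-5p was not detected on any array, and miR-126-3p, which is abundant in endothelial cells, had a scaled signal of 1315 to 1650 in TEBs, 1927 to 2061 in ducts and 2765 to 3863 in stroma. It was lower in TEBs than in stroma (log2 -1.20, limma adjusted p = 0.00096) and lower in ducts than in stroma (-0.75, 0.022), and its TEB minus duct difference was -0.45 (0.082). That last difference turned to 0.10 with the percentile over all mouse miRNAs. All 5 listed adipocyte miRNAs, led by miR-193b and miR-193, were lower in TEBs and in ducts than in stroma (without scaling miR-193 turned to 0.02 in ducts minus stroma), with sums of 737 to 951 in TEBs, 670 to 831 in ducts and 1656 to 2100 in stroma. Between TEBs and ducts 0 of these 5 passed. The 3 red cell miRNAs, led by miR-451, had sums of 1385 to 1923 in TEBs, 2618 to 3320 in ducts and 2018 to 3622 in stroma. All 3 were lower in TEBs than in stroma, and 0 of the 3 passed between TEBs and ducts or between ducts and stroma. The part of these cell types in the levels of miR-23a, miR-23b and the other members was not tested.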

How the data were processed

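RNA (100 ng per array) was hybridised to single-colour mouse miRNA arrays. The authors deposited the total signal intensity per miRNA, which Agilent Feature Extraction (version 9.5.3, per the submitters' processing notes) summed over probes and background-subtracted, with its error and a detection flag. They also deposited a value table that follows their quantile-normalised log2 signals, used as an alternative. No counts exist, so the number of arrays limits the precision.

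Groups follow the tissue named in the sample titles. The 39 viral probes were left out. Scaling to the 75th percentile used the 108 miRNAs that all 8 arrays detected, signals under 1 were set to 1, and log2 was taken. A miRNA was tested if all arrays of 1 tissue or more detected it, which left 167, and these were fitted with limma 3.58.1 (R 4.3.3) over all arrays, with Benjamini-Hochberg adjustment within each comparison and a threshold of 0.05. Within-array ratios were compared by two-sided exact permutation tests (Python 3.11.15). The scripts were tested on simulated data.

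miRNAs named in the text are the 5 members, the other strands of their hairpins, miRNAs with a member's seed, the 3 most similar miRNAs per member and the 1 or 2 brightest of each marker list. miR-203 and miR-182 were named outside this rule, after their values were seen. The members and lists were chosen with earlier results of these data known. Alternatives were other scalings, an added constant of 16, no filter or a stricter one on detection, normexp (offset 50), a replicate block, the slide row as a covariate, other fits and tests, and leaving out each array.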

Additional observations from a re-analysis of the deposited data

How the results depend on the processing

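Over the settings other than leaving out an array, 339 of 410 differences and ratio shifts kept their sign and, where tested, their side of the threshold. Values within a slide row, and ratio shifts with the replicate block, had no test. They were counted if they moved by less than the largest SD of the tissues compared. Tested ratio shifts could not pass in any setting, so their side was fixed in advance. A further 7 values turned sign within a slide row, and 40 of 50 counts stayed within 1.5 times. The cause of the changes below was not tested. Log2 values are first tissue minus second. With the 75th percentile over all mouse miRNAs, TEB minus duct became 0.24 (miR-23a), -0.056 (miR-23b), 0.45 (miR-24), 0.33 (miR-27a) and 0.30 (miR-27b), TEB minus stroma -0.20 (miR-23a, not passing), 0.13 (miR-23b), 0.34 (miR-24) and 0.39 (miR-27a), duct minus stroma -0.11 (miR-24), and epithelium minus stroma -0.32 (miR-23a, not passing) and 0.11 (miR-24). Without scaling, TEB minus stroma was -0.35 (miR-23a, not passing), 0.19 (miR-24) and 0.24 (miR-27a), duct minus stroma 0.33 (miR-23a), 0.96 (miR-23b, past the threshold) and 1.03 (miR-27b, past the threshold), and epithelium minus stroma -0.0083 (miR-23a, not passing), 0.47 (miR-23b, past the threshold), 0.42 (miR-24) and 0.72 (miR-27b, past the threshold). With quantile normalisation, TEB minus duct was -0.51 (miR-23b) and 0.042 (miR-24), TEB minus stroma 0.078 (miR-24) and 0.12 (miR-27a), and epithelium minus stroma 0.057 (miR-24). The authors' value table gave -0.52 and 0.043, 0.077 and 0.12, and 0.056 for the same, 0.37 for miR-27b in epithelium minus stroma (past the threshold), and -0.0885 for the TEB minus duct shift of the miR-27a to miR-27b ratio, which was -0.018 with 16 added.

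With normexp, TEB minus stroma was -0.26 (miR-23b, past the threshold), 0.0021 (miR-27a) and -0.15 (miR-27b), duct minus stroma -0.25 (miR-23a, past the threshold) and -0.014 (miR-27b), and epithelium minus stroma -0.018 (miR-23b) and -0.081 (miR-27b). The miR-27a to miR-27b ratio then shifted by 0.18, -0.077, 0.15 and 0.23 (epithelium minus stroma, TEB minus duct, TEB minus stroma, duct minus stroma), miR-23b to miR-27b by 0.027 and 0.24 (epithelium minus stroma, duct minus stroma), and miR-24 to the others by 0.0032 (duct minus stroma).

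With no detection filter, a fit in which many variances are 0, miR-23b in TEB minus duct (-0.61) did not pass and miR-23a in duct minus stroma (-0.28) did. The latter passed also with trend and robust estimation and over the 108 miRNAs, where miR-27b in epithelium minus stroma (0.29) passed too. In 2-group fits miR-23a in TEB minus duct (-0.31) did not pass and miR-27b in duct minus stroma (0.41) did, as it did by the methods' t-test, in which miR-23b in TEB minus duct (-0.61) did not. With the slide row, miR-23a in TEB minus duct (-0.31) did not pass. miR-23b in TEB minus stroma was -0.082 and -0.45 within the rows.

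Deviations from the tissue means had a mean r of -0.10 over 7 pairs of same-numbered arrays (-0.51 to 0.36). Over 14 pairs of different number the mean r was 0.052 (-0.497 to 0.51), and 2 of 8 arrays were closest to one of their own number. Within a tissue of so few arrays the deviations constrain each other. These values therefore cannot tell whether arrays with the same replicate number shared an animal or a batch. With that number as a block, TEB minus duct was -0.32 (miR-23a) and -0.62 (miR-23b), neither passing (limma adjusted p = 0.086 and 0.085), and duct minus stroma -0.0069 (miR-24). No other call on a member changed. The count of miRNAs past the threshold between TEBs and ducts, 41 above (19 higher and 22 lower in TEBs), was 16 with the block, 18 with no filter, 12 by the methods' t-test and 75 without scaling (12 higher, 63 lower). It was 30 with the percentile over all mouse miRNAs (24 higher, 6 lower) and 42 with quantile normalisation (30 higher, 12 lower). Between TEBs and stroma, 108 (34 higher) became 66 (38 higher) with that percentile and 82 (41 higher) without scaling. Between ducts and stroma, 36 (16 higher) became 19 (11 higher), 56 without scaling (52 higher) and 66 with normexp (14 higher). For epithelium against stroma, 74 (31 higher) became 41 (27 higher), 61 (52 higher) and 122 (21 higher).

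With each array left out (a lone duct array is taken to vary like the others), the count between TEBs and ducts ran from 5 (without TEB replicate 2) to 45, and 7 without duct replicate 1, and between ducts and stroma from 22 to 40. TEB minus duct ran from -0.34 to -0.28 (miR-23a) and -0.69 to -0.54 (miR-23b), and TEB minus stroma from -0.35 to -0.17 (miR-23b, past the threshold without TEB replicate 1), -0.23 to 0.11 (miR-27a) and 0.074 to 0.29 (miR-27b). Duct minus stroma ran from -0.026 to 0.096 (miR-24), -0.0046 to 0.33 (miR-27a) and 0.38 to 0.44 (miR-27b), and epithelium minus stroma from -0.012 to 0.14 (miR-23b), -0.076 to 0.029 (miR-24), -0.12 to 0.22 (miR-27a) and 0.24 to 0.35 (miR-27b). Ratio shifts ran from -0.057 to 0.11 (miR-27a to miR-27b, TEB minus duct), -0.0375 to 0.063 (miR-24 to the others, epithelium minus stroma) and -0.13 to 0.055 (miR-23b to miR-27b, duct minus stroma).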

Other observations

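Other cell types in the fractions were measured by lists that moved less evenly than those above. miR-143, which is abundant in smooth muscle, had a TEB mean of 62.2 ± 2.87 scaled units (SD, n = 3), a duct mean of 95.1 ± 7.92 (SD, n = 2) and a stroma mean of 82.6 ± 12.6 (SD, n = 3). It was lower in TEBs than in ducts (log2 -0.61, limma adjusted p = 0.027) and than in stroma (-0.40, 0.035), differences that shrank to -0.060 and -0.0071 with the 75th percentile over all mouse miRNAs, and miR-145, the other miRNA of that list, was detected on none of the 8 arrays. Of the fibroblast list, 3 of 4 were higher in TEBs than in stroma (20.4% of all tested) and 2 of 4 higher in ducts than in stroma (9.58%). miR-199a-3p had a log2 difference of 0.37 between TEBs and stroma (limma adjusted p = 0.039). Of the 4 skeletal muscle miRNAs 2 were tested and 0 passed in any comparison, with sums of 17.1 to 89.5 scaled units in TEBs, 56.1 to 178.6 in ducts and 31.2 to 60.2 in stroma. Of the 5 leukocyte miRNAs 2 were tested, with sums of 296 to 450 in TEBs, 361 to 384 in ducts and 563 to 679 in stroma. Of these, miR-223, a miRNA of myeloid cells, was lower in TEBs than in stroma (log2 -0.64, limma adjusted p = 0.020).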
